A study of Mus musculus with 3 samples.

Results

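STAT factors and interferon receptors were followed in mouse primary pre-osteoclasts through 9 genes: the transcription factor genes Stat2, Stat3, Stat5a, Stat5b and Stat6 and the receptor subunit genes Ifnar1, Ifnar2, Ifngr1 and Ifngr2. They were taken by symbol, and all 9 were found among the 24067 genes of the deposited expression table. All 9 also passed the filter used here, FPKM (fragments normalised for transcript length and for the number of fragments mapped in the library) averaging 1 or more over the libraries, which kept 10358 genes.

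Cells treated with MCSF and RANKL for 2 days, which become mononuclear precursors of bone-resorbing osteoclasts, were measured by mRNA sequencing in 3 groups of 1 library each. The first group was static cells with control short hairpin RNA (shRNA), of genotype WT and untreated. The second was WT cells with control shRNA after orbital shear stress, the fluid flow produced by swirling a dish, for 24 hours. The third was cells labelled Ift88 knockdown, which carried Ift88 shRNA and received the same shear. All cells came from bone and all were grown with MCSF and RANKL. The shRNA was in place before differentiation, so the knockdown ran through both steps. The labels name no strain, age, vector or number of animals. The 3 libraries include no Ift88 shRNA cells kept static, so the knockdown could be compared under shear only. The study addressed the role of Ift88, a component of the transport machinery of the primary cilium, in the response of such cells to shear.

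Interferons bind receptors made of paired subunits, IFNAR1 with IFNAR2 for type I interferon and IFNGR1 with IFNGR2 for interferon gamma. The receptors activate kinases of the JAK family, which phosphorylate STAT proteins that then move to the nucleus and switch on genes. STAT2 works with IRF9 in the complex that drives the antiviral genes, whereas STAT3 serves cytokines such as IL-6 and IL-10, STAT5A and STAT5B serve GM-CSF and related cytokines, and STAT6 serves IL-4 and IL-13. Both interferon types are known to restrain osteoclast formation from precursors.

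Ift88 itself was measured at 2.98 FPKM in static cells, 2.71 in sheared control cells and 1.197 in sheared Ift88 shRNA cells, a ratio of 0.442 between the sheared libraries. Its 95% counting interval, from estimated fragments, was 0.353 to 0.547. Estimated depth was 34800000, 35300000 and 35000000 fragments in the same order. Of 13 osteoclast lineage markers, 10 passed the filter, among them Acp5 (52.9 to 97.7 FPKM), and Calcr, Ocstamp and Oscar stayed below 1 FPKM in every library. With 1 library a group, differences were not checked against replicates, no p-value was computed, and every interval covers counting error only. In these bulk samples, fewer cells of a type and less RNA per cell cannot be told apart.

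Each of the 9 genes had similar levels in the 3 libraries. No member differed by 1.2-fold or more on the log2(FPKM + 1) scale between sheared and static control cells, where 4.2% of all genes did. None did so with Ift88 shRNA against the sheared control either, where the share of all genes was 5.54%. With 9 genes, counts of 0 lie near these shares. At 1.1-fold 1 member was past the fold in each comparison, Stat2 (lower) with shear and Ifnar1 (higher) with Ift88 shRNA, where 22.8% and 23.3% of all genes were past it. In the shear comparison 4 members were higher and 5 lower, where 46% of all genes were higher and 53.9% lower. With Ift88 shRNA 5 were higher and 4 lower, where 53.6% of all genes were higher and 46.4% lower.

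**Figure D1:**
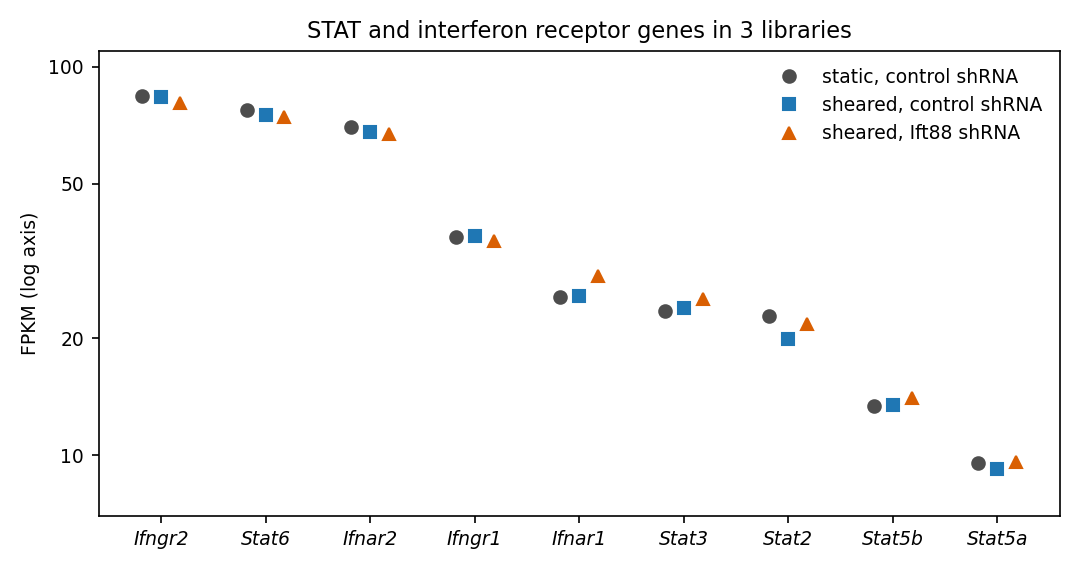
FPKM on a log axis of the 9 genes in each of the 3 libraries (1 point per library, no error bars because each group had 1 library), ordered by the static level. The order of the genes was the same in each library, from Ifngr2 at 80.8 to 84.4 FPKM down to Stat5a at 9.24 to 9.63.

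The most abundant members per length were Ifngr2, Stat6 and Ifnar2, and the least abundant was Stat5a. The order was Ifngr2, Stat6, Ifnar2, Ifngr1, Ifnar1, Stat3, Stat2, Stat5b and Stat5a in each of the 3 libraries. In the static library Ifnar1 (25.5 FPKM), Stat3 (23.5) and Stat2 (22.9) were close neighbours in that order. The highest and lowest library of a member differed by 1.03 to 1.14 times on the (FPKM + 1) scale. Among the 4755 genes within the members' range of mean FPKM, the median of that ratio was 1.09. Stat2 and Ifnar1 had the widest spans of the 9, and 22.8% and 25.7% of those 4755 genes had a wider one. For the other members that share was between 63.1% for Stat3 and 91.2% for Ifngr1.

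Stat2, the STAT specific to type I and type III interferon signalling, was at 22.9 FPKM in static, 19.9 in sheared control and 21.7 in sheared Ift88 shRNA cells. The sheared control library was the lowest of the 3, and the Ift88 shRNA library lay between the others. Sheared control cells held 0.872 times the static level (0.829 to 0.916), from an estimated 3345 and 2958 fragments. The log2 ratio of -0.19 was lower than that of most genes, with 5.95% of the 10358 genes lower still. With Ift88 shRNA the ratio to the sheared control was 1.09 (1.04 to 1.15). Against the static library the Ift88 shRNA library stood at 0.951 (0.906 to 0.998). These comparisons share libraries: the sheared control enters both the shear and the knockdown ratio, on opposite sides, so they are not separate measurements.

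The STAT genes other than Stat2 differed less in the shear comparison. Stat3 was at 23.5 FPKM in static, 23.9 in sheared control and 25.2 in sheared Ift88 shRNA cells. Its shear ratio was 1.02 (0.958 to 1.08) and its knockdown ratio 1.06 (0.997 to 1.12), both with intervals that include 1. The deposited value joins 3 Stat3 transcripts, whose GENCODE matches run from 2927 to 6042 bases. The Stat3 intervals were computed with the shortest length, and a longer one would make them narrower. The Ift88 shRNA library was the highest, at 1.07 times the static level (1.01 to 1.14). Stat6 was about 3 times as abundant as Stat3 per length, with levels of 77.3, 75.2 and 74.3 FPKM in the same order. Its shear ratio of 0.972 had an interval of 0.945 to 1.0005, and its knockdown ratio was 0.988 (0.960 to 1.02). Between the Ift88 shRNA and the static library the Stat6 ratio was 0.961 (0.934 to 0.989).

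Stat5a and Stat5b encode near-identical proteins and lie next to each other in the genome, so fragments may be divided between them by estimation. Stat5a was at 9.56 FPKM in static, 9.24 in sheared control and 9.63 in sheared Ift88 shRNA cells. Stat5b was at 13.4, 13.5 and 14.1 FPKM. Neither gene differed beyond counting error in either comparison. The shear ratios were 0.966 (0.888 to 1.05) for Stat5a and 1.01 (0.949 to 1.07) for Stat5b. The knockdown ratios were 1.04 (0.960 to 1.13) and 1.04 (0.985 to 1.11). The estimated fragments of both genes together, which depend less on that division than their FPKM, numbered 3411, 3434 and 3553 in the same order.

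The open reading frames of Stat5a and Stat5b were aligned to show how far the transcripts can be told apart. They were identical at 90.7% of the 2346 positions aligned without a gap, and their longest run of identical bases was 324. Of all 50-base windows of the Stat5a transcript, 15.8% occur exactly in the Stat5b transcript, and 6.99% of the 100-base windows do. The aligned stretch from base 855 to base 934 of both reading frames holds the 3′ end of that run, and the capital marks the only position of the stretch that differs. The sequences come from the GENCODE M21 transcripts of GRCm38.
Stat5a: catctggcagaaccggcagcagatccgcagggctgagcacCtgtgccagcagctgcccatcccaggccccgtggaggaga
Stat5b: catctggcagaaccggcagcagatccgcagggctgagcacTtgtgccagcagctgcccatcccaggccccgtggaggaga

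Ifnar1, the subunit of the type I interferon receptor that binds the kinase TYK2, was at 25.5 FPKM in static, 25.7 in sheared control and 28.98 in sheared Ift88 shRNA cells. The libraries with control shRNA were nearly equal and the Ift88 shRNA library stood above both. The shear ratio was 1.01 (0.960 to 1.06), whereas the knockdown ratio was 1.13 (1.08 to 1.18) from an estimated 3772 and 3373 fragments. The knockdown log2 ratio of 0.17 was above that of 90.5% of the 10358 genes. Against the static library the ratio was 1.14 (1.08 to 1.19). Osteoclast lineage markers were also higher with Ift88 shRNA in 9 of 10, with a summed level of 984 FPKM in sheared control and 1089 in Ift88 shRNA cells. So were 4 of 4 dendritic cell markers, 4 of 5 stromal markers (9.06 and 11.4 FPKM summed) and 2 of 2 endothelial markers that passed. Below the filter were 7 of 11 listed dendritic cell, 7 of 12 stromal and 4 of 6 endothelial markers. Macrophage markers were higher in 6 of 11 and neutrophil markers in 3 of 5, and the 1 lymphoid marker that passed was lower. Beside all these counts, 53.6% of all genes were higher. Their part in the Ifnar1 result was not tested.

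Its partner Ifnar2, which makes the high-affinity contact with type I interferon and binds JAK1, was not higher in that library. Ifnar2 was at 70.2, 68.2 and 67.2 FPKM in the same order. The shear ratio was 0.971 (0.915 to 1.03) and the knockdown ratio 0.985 (0.928 to 1.05). The deposited value joins 2 Ifnar2 transcripts, whose GENCODE matches run from 1099 to 3047 bases. The interval was computed with the shorter length and is therefore wide.

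The interferon gamma receptor genes were close to even across the libraries. Ifngr1, the ligand-binding subunit, was at 36.6 FPKM in static, 36.6 in sheared control and 35.55 in sheared Ift88 shRNA cells. Ifngr2, the subunit that brings JAK2 to the receptor, was at 84.4, 83.6 and 80.8 FPKM. In the shear comparison their ratios were 1.002 (0.947 to 1.06) and 0.991 (0.964 to 1.02). With Ift88 shRNA the ratios were 0.971 (0.917 to 1.03) for Ifngr1 and 0.966 (0.940 to 0.993) for Ifngr2, and the narrower Ifngr2 interval rests on an estimated 10381 and 9947 fragments.

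**Figure D2:**
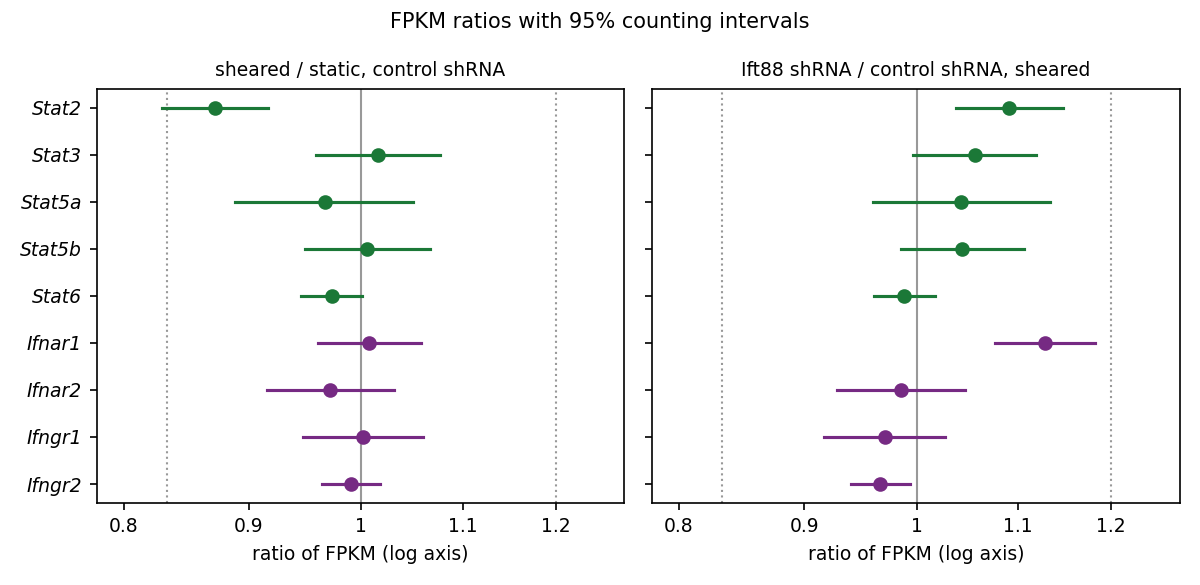
Ratios of FPKM (points) with 95% counting intervals (bars) for the 5 STAT genes (green) and 4 receptor genes (purple) on a log axis, with dotted lines at a 1.2-fold difference. In the left panel the Stat2 interval alone lies apart from 1, and in the right panel those of Stat2, Ifnar1 and Ifngr2 do.

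Counting error was exceeded by 1 of the 9 members in the shear comparison and by 3 of 9 in the knockdown comparison. Over the 10130 genes with an interval, the interval excluded a ratio of 1 for 31.8% and 31.9% of genes in these comparisons. Between the Ift88 shRNA and the static library 5 of 9 members did so (Stat2, Stat3, Stat6, Ifnar1 and Ifngr2), against 40.7% of all genes. In that comparison no member reached 1.2-fold, against 9.27% of all genes, and Ifnar1 alone reached 1.1-fold, against 32.6%. Which intervals excluded 1 depended on scaling, and for Stat3 and Ifnar2 may also depend on the transcript length used. With library totals made equal, Stat6 joined Stat2 in the shear comparison, and in the knockdown comparison Ifngr2 no longer did so while Stat3 and Stat5b did. Stat2 with shear, and Stat2 and Ifnar1 with Ift88 shRNA, did so under every scaling and centring tried. The median log2 ratio of the 9 members was -0.013 in the shear comparison and 0.054 in the knockdown comparison, beside -0.011 and 0.010 over all genes kept. The STAT genes had medians of -0.040 and 0.058, and the receptor genes -0.0053 and -0.032.

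Ratios of genes within a library do not depend on how libraries are scaled against each other. The Ifnar2 level was 2.75 times that of Ifnar1 in static, 2.65 times in sheared control and 2.32 times in sheared Ift88 shRNA cells. From the sheared control to the Ift88 shRNA library that ratio differed by a factor of 0.873 (0.810 to 0.942). The Ifngr2 level was 2.31, 2.28 and 2.27 times that of Ifngr1, a difference of 0.996 (0.935 to 1.06) between the sheared libraries. The Stat5b level was 1.403, 1.46 and 1.46 times that of Stat5a.

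**Figure D3:**
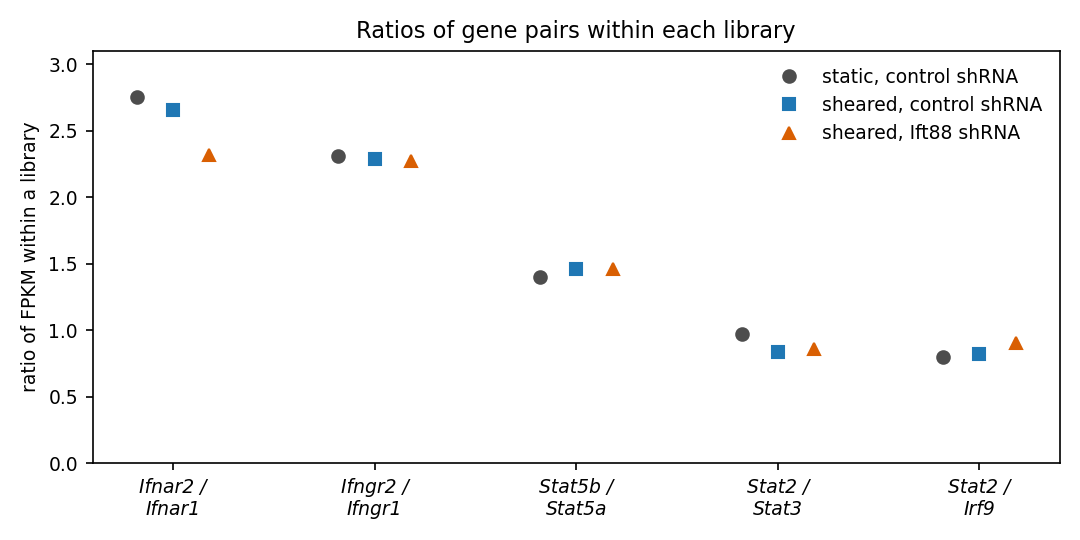
Ratio of FPKM within each library (points, 1 per library) for pairs of receptor subunits, STAT genes and Stat2 with Irf9, on an axis that starts at 0. Ifnar2 over Ifnar1 was lowest in the sheared Ift88 shRNA library, at 2.32, while Ifngr2 over Ifngr1 ranged from 2.27 to 2.31.

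Stat2 was also set against Irf9, the DNA-binding subunit of the complex. Irf9 was at 28.7, 24.3 and 23.98 FPKM, with ratios of 0.847 (0.796 to 0.902) and 0.987 (0.924 to 1.05). Both genes were lower in the sheared control than in the static library, and the ratio of Stat2 to Irf9 differed between them by a factor of 1.03 (0.9501 to 1.11). Irf1, a factor induced by interferon gamma, was at 32.4, 31.6 and 29.5 FPKM. With Ift88 shRNA the level of Stat2 was higher than in the sheared control and that of Irf9 was not. The Stat2 level relative to Irf9 was 0.797 in static, 0.820 in sheared control and 0.906 in Ift88 shRNA cells, a difference of 1.105 (1.02 to 1.1997) between the sheared libraries. Relative to Stat3, the Stat2 level was 0.972, 0.834 and 0.861, which differed between sheared and static control cells by a factor of 0.858 (0.795 to 0.926). Stat4, which serves IL-12 in lymphoid cells, stayed below the filter at 0.327, 0.192 and 0.264 FPKM.

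The promoter of Stat2 is shown because Stat2 is itself among the genes that interferon induces. The 250 bases before its start, chr10:128270248-128270497 on the plus strand of GRCm38.p6 from RefSeq, are printed with an interferon-stimulated response element, searched on both strands as TTTC, any 2 bases and TTTC, in capitals. Its first base lies at -222 from the start.
Stat2 promoter: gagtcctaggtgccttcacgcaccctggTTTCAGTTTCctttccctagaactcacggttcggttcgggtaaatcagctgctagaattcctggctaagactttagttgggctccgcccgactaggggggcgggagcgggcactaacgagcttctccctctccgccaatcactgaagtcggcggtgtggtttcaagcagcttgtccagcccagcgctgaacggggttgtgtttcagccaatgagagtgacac

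Windows of 300 bases, from 250 before to 50 after a start, were available for all 9 members, 11 in all. Stat2 was the only member with a match to it, which 3.44% of the 32851 windows of the table hold. A gamma-activated site, searched as TTCNNNGAA, which reads the same on both strands, matched in the windows of Ifnar1 and Ifnar2 and in 8.30% of all windows. No window of a member held both motifs. Of the 18 listed target genes of STAT2 and IRF9, 14 had a window and 9 of these held the response element. In 4 of them (Ifit1, Ifit3, Oas1a and Bst2) the 10 letters of the Stat2 match occur unchanged. Windows of 24 bases with the motif in capitals, turned to 1 orientation, are set beside each other for Stat2 at chr10:128270269-128270292, Ifit1 at chr19:34640797-34640820, Ifit3 at chr19:34583400-34583423, Bst2 at chr8:71537580-71537603 and, for a match with other letters, Rsad2 at chr12:26456556-26456579.
Stat2: accctggTTTCAGTTTCctttccc
Ifit1: gtctcagTTTCAGTTTCtcactgc
Ifit3: aagtctgTTTCAGTTTCtactttc
Bst2: tgcagccTTTCAGTTTCattttcc
Rsad2: gtccaacTTTCATTTTCagaaaac

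A match describes letters and shows neither binding nor use. Of the 4 genes with the Stat2 letters and Rsad2, Oas1a did not differ beyond counting error in the shear comparison, at 58.96 FPKM in static and 56.97 in sheared control cells, a ratio of 0.966 (0.921 to 1.01). Ifit3 had 16.0 FPKM in static and 10.7 in sheared control cells, Rsad2 17.7 and 12.3, Ifit1 10.02 and 7.04, and Bst2, an antiviral membrane protein, 331 and 311.

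Target genes of STAT2 and IRF9 were lower in sheared control cells, a direction already known from these libraries and not independent of it. Of 17 that passed the filter, all 17 were lower, where 53.9% of all genes were. At least 1.2-fold lower were 9, where 2.26% of all genes were, and the median log2 ratio was -0.35. The ratios of those differing most were 0.547 for Mx1, 0.614 for Ifit2, 0.671 for Ifit3 and 0.694 for Rsad2. In the same comparison Stat2 stood at 0.872. With Ift88 shRNA, 14 of the 17 were higher and 3 lower than in the sheared control, where 53.6% of all genes were higher and 46.4% lower. None differed by 1.2-fold, where 5.54% of all genes did, and the median was 0.093. The feedback inhibitor gene Usp18, which blocks the type I receptor at IFNAR2, was at 37.8, 33.7 and 33.98 FPKM.

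Other signals moved with the lower Stat2 level of the sheared control library. The counts of lower markers that follow stand beside 53.9% of all genes. Osteoclast lineage markers were lower there than in static cells in 8 of 10. The list summed to 1099 FPKM in static, 984 in sheared control and 1089 in Ift88 shRNA cells, mostly from Tcirg1, Csf1r and Atp6v0d2. By 1.2-fold or more, 4 were lower and 1 higher, Itgb3, beside 2.26% and 1.94% of all genes. For the 4, static and sheared control values were 97.7 and 52.9 FPKM (Acp5), 29.4 and 12.6 (Ctsk), 70.3 and 39.3 (Mmp9), and 5.21 and 3.67 (Dcstamp). The 5 neutrophil markers that passed, of 10 in the table, were all lower, and the list summed to 77.7, 43.6 and 45.1 FPKM with no marker at 0 throughout. Macrophage markers were lower in 9 of 11 and summed to 33364, 31721 and 32946 FPKM, of which Lyz2 made up most. Dendritic cell markers were lower in 4 of 4 and summed to 151, 133 and 154 FPKM, with Flt3 at 0. Stromal markers were lower in 4 of 5 and summed to 11.4, 9.06 and 11.4 FPKM. Of the lymphoid markers only Cd4 passed, and the list summed to 15.4, 12.4 and 11.99 FPKM, with Cd3e, Cd3g, Cd8a, Ms4a1 and Gzma at 0. Endothelial markers summed to 28.6, 26.8 and 28.5 FPKM, with Tek and Emcn at 0, and erythroid, mast cell and megakaryocyte markers, nearly all of it Pf4, to 307, 309 and 316 FPKM, with Hba-a1, Hbb-bs, Cpa3 and Mcpt4 at 0. Over 10268 genes of these same libraries, log2 ratios with shear correlated at -0.28 with the length of the transcript and at 0.34 with its GC content (Spearman, as a description). Over all alternatives, centring by both included, the Stat2 log2 ratio lay between -0.21 and -0.17. The part of these cell types in the Stat2 result was not tested.

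Interferon transcripts were at or near 0. Of 10 listed genes for interferons and the lambda receptor subunit Ifnlr1, 7 were listed at 0 in every library. An estimated 1 fragment of Ifnb1 was found in each sheared library and none in the static library, and 1 fragment of Ifng was found in the static library alone. These genes were chosen for mention after their values were seen, and such counts show no difference between libraries. Il10rb, the partner chain shared by the IL-10 and lambda interferon receptors, was at 217, 198 and 196 FPKM, with a shear ratio of 0.911 (0.888 to 0.935).

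The 4 genes of the JAK kinase family differed little. Jak1 was at 50.3, 48.9 and 50.2 FPKM, Jak2 at 7.79, 7.40 and 7.19, Jak3 at 7.22, 6.64 and 6.75, and Tyk2 at 18.6, 17.8 and 16.8. All 4 were lower in sheared than in static control cells, where 53.9% of all genes were lower. These differences were less than 1.2-fold, with intervals that include 1. The list medians were -0.062 with shear and -0.0080 with Ift88 shRNA. With Ift88 shRNA, Tyk2 was at 0.941 times the sheared control (0.892 to 0.992), while the receptor subunit it binds, Ifnar1, was at 1.13. The Ifnar1 level relative to Tyk2 was 1.37 in static, 1.44 in sheared control and 1.73 in Ift88 shRNA cells.

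**Figure D4:**
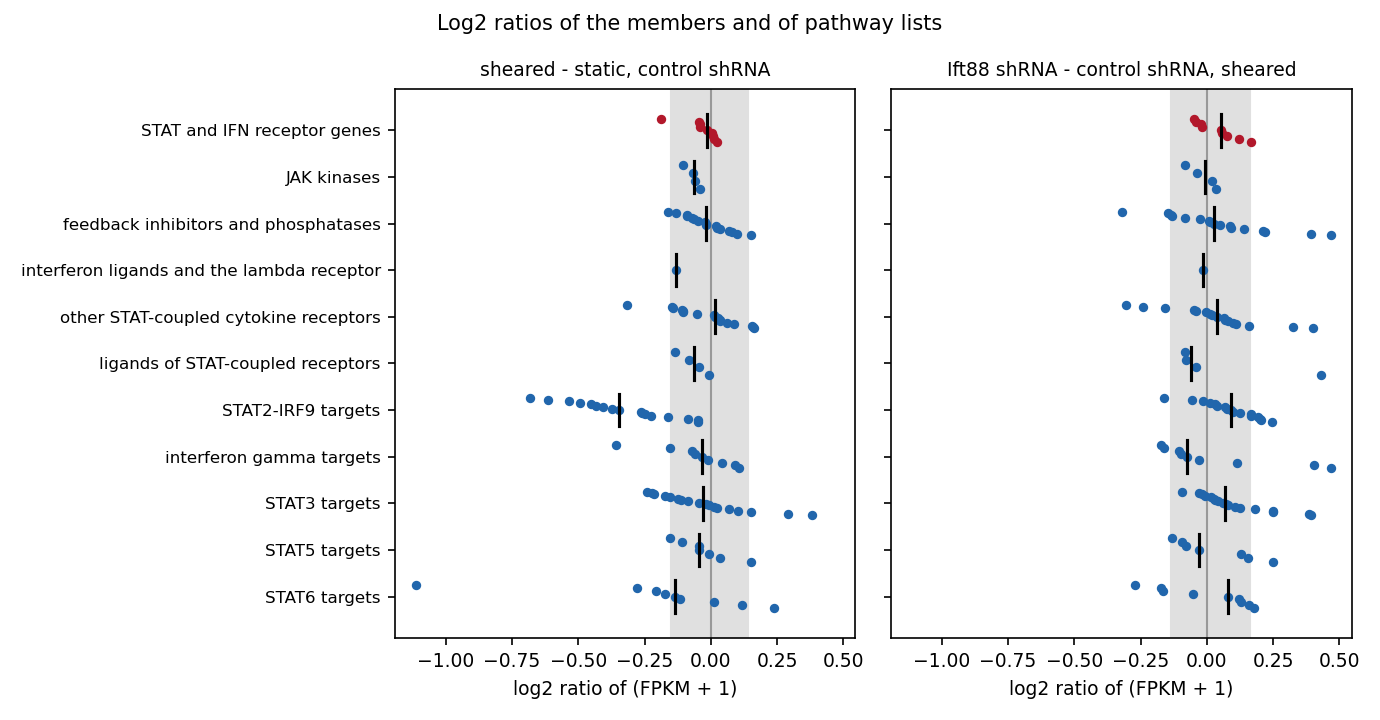
Log2 ratios of (FPKM + 1) of the 9 members (red) and of pathway lists (blue), 1 point per gene that passed the filter, with list medians as black bars and the middle 80% of all genes kept in grey. Most members lie within the grey band, apart from Stat2 to its left in the shear panel and Ifnar1 just to its right, at 0.17, in the knockdown panel, and the STAT2-IRF9 targets lie to the left there, with a median of -0.35.

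Inhibitors of STAT signalling had list medians near 0, at -0.020 in the shear and 0.027 in the knockdown comparison. Of 17 that passed the filter, none was past 1.2-fold in the shear comparison, and 2 were higher and 1 lower with Ift88 shRNA, where 3.25% of all genes were higher and 2.29% lower by that fold. Socs1, an inhibitor of JAK kinases induced by interferon, was at 1.86, 1.72 and 2.76 FPKM, a knockdown ratio of 1.604 (1.31 to 1.97). Socs3, the inhibitor of STAT3 signalling, was at 1.02, 1.13 and 1.79 FPKM, which gives 1.59 (1.22 to 2.08). Socs6 was at 34.6, 33.4 and 26.5 FPKM, and its ratio was 0.794 (0.754 to 0.837).

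Lists of targets of the other STAT factors and of interferon gamma had shear medians below 0, each nearer to 0 than that of the STAT2 and IRF9 targets. Lower with shear were 11 of 18 STAT3 targets, 5 of 7 STAT5 targets, 6 of 9 STAT6 targets and 6 of 9 interferon gamma targets, beside 53.9% of all genes. With Ift88 shRNA 14 of 18 STAT3 targets were higher, beside 53.6% of all genes. Past 1.2-fold, the shares of all genes were 1.94% higher and 2.26% lower with shear, and 3.25% higher and 2.29% lower with Ift88 shRNA, and the counts that follow stand beside these. Of 18 STAT3 target genes, 2 were at least 1.2-fold higher in sheared control cells (Cebpb, at 54.4 and 71.1 FPKM, and Birc5, at 15.8 and 19.6) and none as much lower. With Ift88 shRNA 2 were higher, Socs3 and Il1rn, the latter at 134 against 102 FPKM. Of 7 STAT5 targets that passed, none differed by 1.2-fold in either comparison. Of 9 STAT6 targets, Chil3 and Tgm2 were at least 1.2-fold lower in sheared control cells, at 0.338 and 0.821 times the static level, and Pparg was lower with Ift88 shRNA, at 0.820 times the sheared control. Of 9 interferon gamma targets, Gbp3 was lower in sheared control cells at 0.733, and Socs1 and Icam1 were higher with Ift88 shRNA, Icam1 at 1.33 times the sheared control. Receptors and ligands of other cytokines that use STAT proteins were also counted. Of 17 receptor genes that passed, Il21r was at 12.5, 9.83 and 13.3 FPKM, Il2rg at 172, 155 and 194, and Il11ra1 at 5.79, 5.95 and 4.63. These were the genes past 1.2-fold, Il21r with shear and all 3 with Ift88 shRNA, and the list medians were 0.015 and 0.040. Of 4 ligand genes that passed, Csf1, which encodes MCSF itself, was at 11.4, 11.4 and 15.7 FPKM, and the medians were -0.063 and -0.061. For the target lists, medians in the shear comparison were -0.031 for STAT3, -0.045 for STAT5, -0.13 for STAT6 and -0.032 for interferon gamma targets, and with Ift88 shRNA 0.068, -0.030, 0.079 and -0.075.

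The members lie on 3 chromosomes in GRCm38. Stat5b (100780731 to 100859004), Stat5a (100859351 to 100885169) and Stat3 (100886806 to 100939594) follow each other on chromosome 11 with gaps of 346 and 1636 bases and no protein-coding gene between them. Ifnar2 (91372783 to 91405589), Ifnar1 (91485032 to 91510523) and Ifngr2 (91547059 to 91564007) lie on chromosome 16, with Il10rb between Ifnar2 and Ifnar1. Stat6 (127642955 to 127660987) and Stat2 (128270498 to 128292853) lie on chromosome 10, as does Ifngr1 (19591949 to 19610229). On chromosome 11 the knockdown ratios of neighbours were alike, at 1.04 for Stat5b, 1.04 for Stat5a and 1.06 for Stat3. On chromosome 16 the knockdown ratio was 0.985 for Ifnar2, 0.990 for Il10rb, 1.13 for Ifnar1 and 0.966 for Ifngr2.

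The genes most like Stat2 and Ifnar1 were found by the distance between their log2 ratios in the shear and knockdown comparisons, over the 3 libraries and 7548 other genes averaging 5 FPKM or more. Nearest to Stat2 were Lactb2 (distance 0.010), Rnf214 (0.012) and Ndufc1 (0.013), and 115 genes lay within 0.05. Nearest to Ifnar1 were Mki67 (0.0057), Fhl3 (0.0065) and Taok2 (0.0073), and 204 genes lay within 0.05. So many close genes make the nearest names a weak description.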

How the data were processed

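RNA was measured in 3 libraries, 1 per group. The values are FPKM as deposited by the authors, in 1 table in which the transcripts of a gene are joined. Build mm10 and the tools Cufflinks 2.2.1, TopHat2 2.0.13, Trimmomatic 0.32 and bcl2fastq 1.8.4 stand in the submitters' processing notes, without settings or the handling of strand. FPKM is a share of a library, so a few abundant genes can move all others.

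Log2 ratios were computed from FPKM + 1 for genes averaging 1 FPKM or more, which understates differences of low genes. Library depth was inferred from the steps between low values, up to 8 fragments, of genes with 1 transcript of at least 1000 bases. Transcript lengths were those of GENCODE M21, shortened by 190 bases. Of these values 64.9% to 66.2% were whole within 0.1, so fragment numbers are approximate and count models were not used. They were derived with the length of a gene's shortest transcript, where this was over 500 bases. Intervals are 95% Clopper-Pearson intervals, and for ratios of pairs normal intervals on the log scale, from these fragments. The Clopper-Pearson intervals were tested only on simulated counts, which lack the error of deriving fragments from FPKM. The pair intervals were not tested. A gene was counted at 1.2-fold, and no test was run.

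The members, the pathway lists, the marker lists and the folds were chosen with earlier results of these data known. The genes named were the 9 members, Ift88, the JAK kinases, Stat4, Irf9 and Usp18, up to 4 genes per list and comparison past 1.2-fold in the shear or knockdown comparison, Il10rb as a neighbour, and for members past 1.1-fold the 3 nearest genes. Ifit1, Oas1a, Bst2, Irf1, Ifnb1, Ifng and Ifnlr1 were named after their values were seen. Some items of these lists are not reported here. Coordinates and promoters are from RefSeq GRCm38.p6. Alternatives were pseudocounts, filters, scaling, centring and folds. Python 3.11.15, SciPy 1.17.1 and Biopython 1.88 were used.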

Additional observations from a re-analysis of the deposited data

How the results depend on the processing

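No member reached 1.2-fold in any of the 3 comparisons under pseudocounts of 0.1 or 0.5, a mean FPKM of at least 5, no filter, equal library totals, centring on the median of all genes, or centring within classes of length and GC content. Counted at 1.1-fold, 1 of the 9 members was past the fold in each comparison: Stat2, lower, in the shear comparison, and Ifnar1, higher, in the others, beside 22.8%, 23.3% and 32.6% of all genes. At 1.5-fold the count stayed at 0. In a check added after seeing the data, the number of members whose counting interval excludes 1 went from 1 to 2 with shear (Stat2 and Stat6) under equal library totals and under centring by length and GC content. With Ift88 shRNA it went from 3 to 4 under the same alternatives, with different members: Stat3 and Stat5b joined and Ifngr2 left under equal totals, and Stat6 joined under the centring. Between the Ift88 shRNA and static libraries Stat2 left and Stat5b joined under equal totals, and Stat3 left under the centring. The 189 single-gene values under these alternatives all moved by less than their counting interval. The Stat2 log2 ratio ranged from -0.21 to -0.17 with shear and from 0.093 to 0.15 with Ift88 shRNA, and that of Ifnar1 with Ift88 shRNA from 0.14 to 0.20. For Ifngr2 with Ift88 shRNA the range was -0.075 to -0.017. The members' median with Ift88 shRNA ranged from 0 after centring by length and GC content to 0.084 with equal library totals. With shear it was 0.0041 after centring by length and GC content, against -0.013. Signs turned under 1 alternative for members near 0: Stat5b, Ifnar1, Ifngr1 and Ifngr2 with shear, Stat6 and Ifnar2 with Ift88 shRNA, and Stat5a between the Ift88 shRNA and static libraries. No paired analysis was possible because each group had 1 library. Depth gave about 1114 to 10381 fragments per member and library, so counting limits ratios to within several percent, and variation between cultures was not measured.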
